A study of Caenorhabditis elegans with 4 samples.

Results

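The miR-35 family is a group of microRNAs (miRNAs) of *Caenorhabditis elegans* that is best known from embryos. Its mature -3p forms from miR-35-3p through to miR-40-3p were followed here in adult animals at day 5 of adulthood. These 6 were taken by name from a table of 66 listed miRNAs, and all 6 were found. Small RNAs had been recovered by co-immunoprecipitation (co-IP) with a FLAG antibody from animals of strain PQ530, which carry FLAG::GFP::ALG-1, and of strain PQ582, which carry FLAG::RFP::ALG-2. Both tags sit on the endogenous Argonaute gene, each in 1 edited line, and the animals of both strains fed on OP50 bacteria with no further treatment, with eggs and progeny larvae taken away before collection. There were 2 libraries for each Argonaute, called A and B here because the column names give the Argonaute but no replicate number. The libraries of a group came from independent RNA samples, which the study calls 2 independent experiments. No source used here says whether these were separate cultures, so p-values measure the spread between these libraries only. Input RNA and untagged animals were not analysed here, and binding to an Argonaute cannot be told apart from where and how much of that Argonaute and of each miRNA is present. In whole animals, fewer cells that make a miRNA and less of it in each cell cannot be told apart either.

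Argonaute proteins hold a miRNA and are guided by it to matching sites in messenger RNAs, mainly through the seed near the 5′ end of the miRNA. Members of the miR-35 family share their seed, and the ones followed here are made from neighboring hairpins. The family is supplied by the mother and made early in the embryo, is needed for embryos to survive, and is known to hold down *egl-1*, an activator of cell death, and *nhl-2* and *sup-26*, which act in sex determination. It normally disappears as larvae begin to develop, so its presence in adults is usually linked to the germline and to embryos.

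The 6 genes lie in one stretch of 668 bases on chromosome II of the WBcel235 assembly, in the order of their names. *mir-35* spans 11537608-11537704, *mir-36* spans 11537713-11537809 and *mir-37* spans 11537833-11537930. *mir-38* spans 11537933-11538027, *mir-39* spans 11538089-11538175 and *mir-40* spans 11538184-11538275. All 6 fall within the span of the protein-coding gene *Y62F5A.9* (11535141-11538841), and the spaces between them range from 2 bases (*mir-37* to *mir-38*) to 61 bases (*mir-38* to *mir-39*). *mir-41*, the last of the 7 genes of the cluster, begins 32 bases after *mir-40*, and miR-41 was not analysed here. In the values below, the family means the 6 members followed here. Sequences of the mature forms are not shown, and because the forms are closely related, the way reads were divided among them is uncertain.

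The values are RPM, the reads of a miRNA per 1000000 reads of its library. The ALG-1 libraries rested on 11625117 (A) and 6428905 (B) reads, and the ALG-2 libraries on 12401622 (A) and 25703472 (B) reads. The replicates of ALG-1 resembled each other more closely than those of ALG-2, since the median absolute log2 difference between A and B over all miRNAs was 0.34 for ALG-1 and 0.90 for ALG-2. ALG-2 library A stood apart from the rest in its reads of the miR-58 family. Reads of the 4 listed miR-58 family members amounted to 46.4% and 49.2% with ALG-1, compared to 15.03% in ALG-2 library A and 46.6% in ALG-2 library B. For some other miRNAs ALG-2 library B stood apart, such as miR-235-3p, with 2277 RPM there and 12010 to 15877 RPM in the other libraries. Results on the miR-35 family are therefore also given without either ALG-2 library. Of the adult and tissue miRNAs looked up to check the label, let-7-5p and lin-4-5p, which rise during larval life, were present at 1713 and 1713 RPM and at 914 and 720 RPM in the ALG-1 libraries. In the ALG-2 libraries they were at 1093 and 578 RPM and at 343 and 181 RPM. miR-228-5p, which is made in glia, was present at 28090 to 36705 RPM in all libraries, and miR-1-3p and miR-124-3p were not analysed here.

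The 6 members together took a smaller part of the ALG-1 libraries than of the ALG-2 libraries. The sum of the 6 members was 4.84% (A) and 4.19% (B) of the ALG-1 libraries, compared to 26.5% (A) and 14.1% (B) of the ALG-2 libraries. The groups did not overlap, and the sum was lower with ALG-1 by between 2.91 and 6.32 times over the 4 ratios of an ALG-1 to an ALG-2 library. Exact 95% binomial intervals, which cover counting error only, ran from 4.83% to 4.85% and from 4.17% to 4.20% for the ALG-1 libraries. For the ALG-2 libraries they ran from 26.45% to 26.50% and from 14.07% to 14.10%, so counting error was negligible beside the spread between libraries. The log2 ratio of the sums, ALG-1 over ALG-2, was -2.10 ± 0.47 (SE, n = 2 each). An exact two-sided permutation test gave p = 0.333, the smallest that 2 libraries against 2 can give. Without ALG-2 library A the log2 ratio was -1.65, and without ALG-2 library B it was -2.56.

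Because each library is scaled to a fixed total, the rest of the library gives way to the family. The other 60 listed miRNAs together made up 95.1% and 95.8% of the listed reads with ALG-1, compared to 73.3% and 85.8% with ALG-2. On the log2 scale their sum was 0.27 higher with ALG-1. The median log2 ratio of the 6 members was -2.01, compared to 0.13 for all 66 miRNAs and 0.33 for the other 60.

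Individually, 5 of the 6 members were lower in both ALG-1 libraries than in either ALG-2 library, while 25.8% of all listed miRNAs did not overlap in this direction. The same 5 passed the criterion the study used, taken here to hold in all 4 ratios: more than 1.5-fold apart in one direction. Of all listed miRNAs, 16.7% passed it toward ALG-2. With fewer ratios to pass, all 6 members passed it without ALG-1 library A and also without ALG-2 library A, beside 25.8% of all listed miRNAs in each case. It was 5 members without ALG-1 library B, beside 16.7% of all listed miRNAs, and 5 without ALG-2 library B, beside 27.3%. Toward ALG-1, 13.6% of all listed miRNAs passed it and 0 of the 6 members did.

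miR-37-3p had the lowest ALG-1/ALG-2 ratio of the family. It had 3245 and 3137 RPM in the ALG-1 libraries, compared to 40137 and 27679 RPM in the ALG-2 libraries. The ALG-1 values were nearly equal, and the lower ALG-2 value was still 8.53 times the higher ALG-1 value. On the log2 scale the ratio of ALG-1 to ALG-2 was -3.38 ± 0.48 (SE), with an adjusted p of 0.0264 by limma. This placed miR-37-3p 34th and 31st in abundance among the 66 miRNAs with ALG-1, but 7th and 9th with ALG-2.

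miR-36-3p was a rare member with a difference nearly as wide. It had 711 and 443 RPM in the ALG-1 libraries, compared to 3176 and 6692 RPM in the ALG-2 libraries. The groups were at least 4.47 times apart, but library B was the higher of the ALG-2 libraries, the reverse of the order seen for the abundant members. With a log2 ratio of -3.04 ± 0.62 (SE), miR-36-3p had an adjusted p of 0.0575 by limma.

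miR-35-3p, after which the family is named, was the most abundant member with ALG-1. It had 21457 and 18557 RPM in the ALG-1 libraries, compared to 74097 and 49683 RPM in the ALG-2 libraries, and was lower with ALG-1 by 2.32 to 3.99 times. It ranked 13th among all listed miRNAs in both ALG-1 libraries and 4th in both ALG-2 libraries. The log2 ratio of miR-35-3p was -1.60 ± 0.45 (SE), and limma gave an adjusted p of 0.0840.

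miR-40-3p had 13675 and 11533 RPM in the ALG-1 libraries, compared to 110967 and 34682 RPM in the ALG-2 libraries. In ALG-2 library A it was the second most abundant of all 66 miRNAs, whereas in ALG-2 library B it ranked 7th. The groups stayed apart, but the distance depended on the ALG-2 library, from 2.54 times with B to 9.62 times with A. Its log2 ratio was -2.30 ± 0.64 (SE), and limma gave an adjusted p of 0.0840.

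miR-39-3p, encoded next to *mir-40*, had 8719 and 7880 RPM in the ALG-1 libraries, compared to 35847 and 20511 RPM in the ALG-2 libraries. It was lower with ALG-1 by 2.35 to 4.55 times, a distance close to that of miR-35-3p. The ratio on the log2 scale was -1.71 ± 0.50 (SE), with an adjusted p of 0.0893 by limma.

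miR-38-3p was the rarest member in every library and the one whose groups overlapped. It had 585 and 317 RPM in the ALG-1 libraries, compared to 550 and 1616 RPM in the ALG-2 libraries. ALG-2 library A lay between the ALG-1 libraries, and only ALG-2 library B was above both. Its ratio on the log2 scale was -1.13 ± 0.74 (SE), and limma gave an adjusted p of 0.402. Its values rested on 6800 and 2035 reads with ALG-1 and on 6818 and 41541 reads with ALG-2, so its relative counting error was at most 2.22%.

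**Figure D1:**
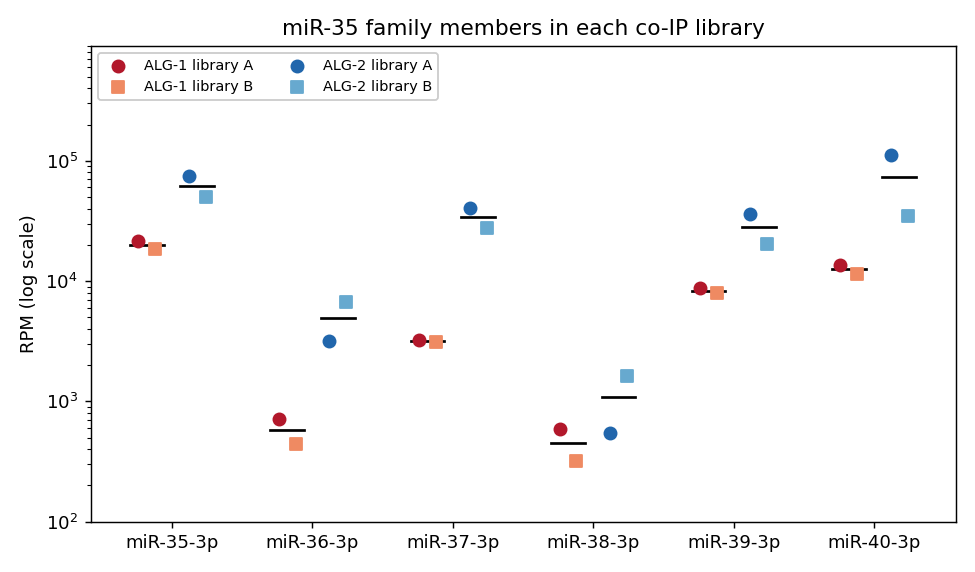
RPM (log axis) of each family member in each library, with ALG-1 libraries in red shades to the left of ALG-2 libraries in blue shades; circles are libraries A, squares are libraries B, and black lines are group means (n = 2 each). For 5 members both red points lie below both blue points, whereas for miR-38-3p the point of ALG-2 library A (550 RPM) lies between the ALG-1 points (585 and 317 RPM).

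When tested with limma over all 66 miRNAs, 1 of the 6 members, miR-37-3p, was significantly lower with ALG-1 (adjusted p below 0.05), and it was the sole miRNA of the whole table to pass in this direction, 1.52% of those listed. Before adjustment 5 of the 6 members were lower with ALG-1 at a limma p-value below 0.05, compared to 15.2% of all listed miRNAs in this direction. In refits that each left out 1 library, where the lone library of a group is assumed to vary like the others, miR-37-3p did not pass without ALG-1 library A (limma adjusted p = 0.472), ALG-1 library B (0.736) or ALG-2 library A (0.0672), while 2 members, miR-37-3p and miR-40-3p, were lower with ALG-1 without ALG-2 library B, as were 4 of all 66 miRNAs in that refit. Once the family was left out of the total to which libraries were scaled, 0 members passed, the log2 ratio of miR-37-3p was -3.65 and its limma adjusted p was 0.0688.

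**Figure D2:**
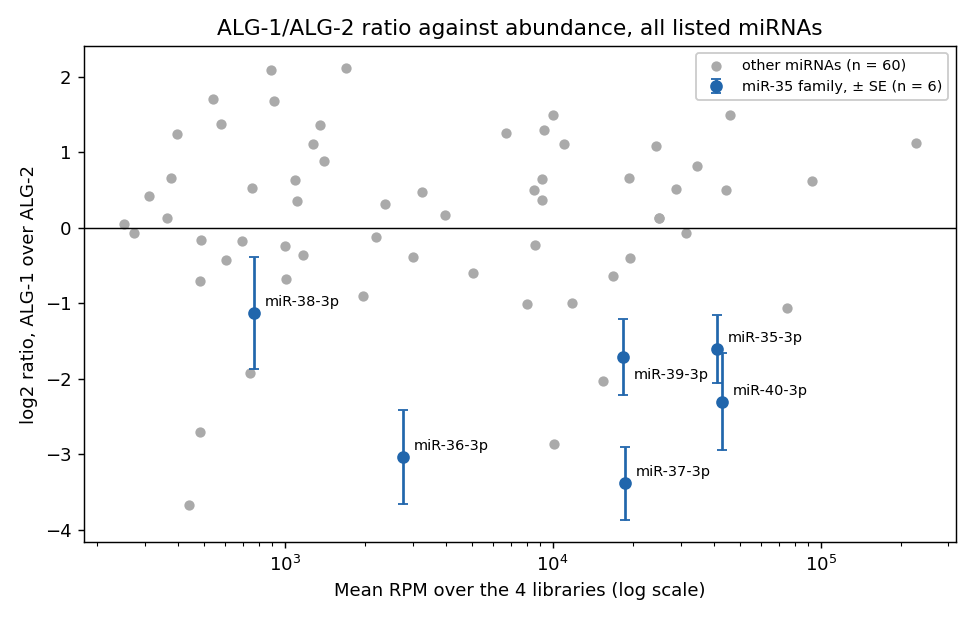
Log2 ratio (ALG-1 over ALG-2) of all 66 listed miRNAs against their mean RPM over the 4 libraries (log axis); blue points with SE bars are the 6 family members and gray points are the other 60 miRNAs. The members lie between -1.13 (miR-38-3p) and -3.38 (miR-37-3p), below the median of all miRNAs at 0.13, and both rare and abundant members are found at either end.

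The members of this one cluster differed widely in abundance. With ALG-1, miR-35-3p came first in both libraries, then miR-40-3p, miR-39-3p, miR-37-3p, miR-36-3p and miR-38-3p. The ranges of neighbors in this order did not overlap across the ALG-1 libraries, except those of miR-36-3p and miR-38-3p, although miR-36-3p was above miR-38-3p within each library. miR-35-3p exceeded miR-38-3p by 36.7 times in library A and by 58.6 times in library B. With ALG-2, the order of the means was miR-40-3p, miR-35-3p, miR-37-3p, miR-39-3p, miR-36-3p and miR-38-3p. The ranges of miR-40-3p and miR-35-3p overlapped, as did those of miR-37-3p and miR-39-3p. The most abundant member exceeded the rarest by 202 times in ALG-2 library A, where it was miR-40-3p, and by 30.7 times in ALG-2 library B, where it was miR-35-3p.

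Abundance did not follow the order of the genes. *mir-37* and *mir-38* are 2 bases apart, yet miR-37-3p exceeded miR-38-3p by 5.55 and 9.91 times with ALG-1, compared to 73.0 and 17.1 times with ALG-2. *mir-35* and *mir-36* are 8 bases apart, and miR-35-3p exceeded miR-36-3p by 30.2 and 41.9 times with ALG-1 and by 23.3 and 7.42 times with ALG-2. The closest levels of adjacent genes were those of miR-39-3p and miR-40-3p, also 8 bases apart. Here miR-40-3p was higher by 1.57 and 1.46 times with ALG-1 and by 3.10 and 1.69 times with ALG-2. The 4 libraries thus shared low values at *mir-36* and *mir-38* and higher values at the genes on either side. RPM counts sequenced reads, and whether all members are captured equally well in a library was not tested.

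**Figure D3:**
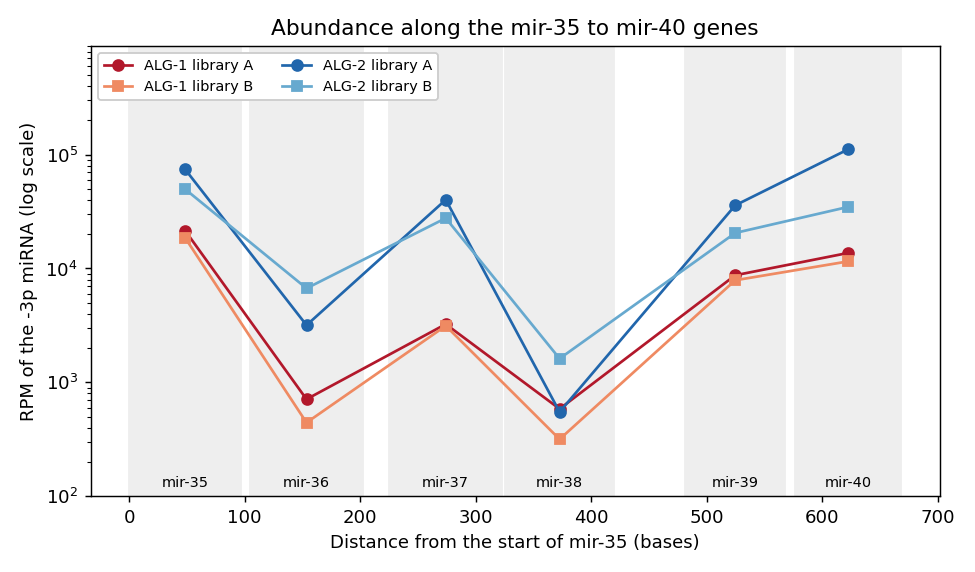
RPM (log axis) of the -3p miRNA of each gene against the distance from the start of *mir-35* in bases, with gray bands for the genes and one line per library (red shades ALG-1, blue shades ALG-2, circles A, squares B). In all 4 libraries the lines dip at *mir-36* and at *mir-38*, and the dip at *mir-38* is deepest in ALG-2 library A, where miR-37-3p exceeded miR-38-3p by 73.0 times.

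The make-up of the family, each member as a share of the 6-member sum, does not depend on how a library is scaled. It was nearly the same in both ALG-1 libraries, where 1.59% of the family reads would have to move between members to turn one make-up into the other. The ALG-2 libraries differed from each other by 17.3%. The ALG-1 libraries differed from ALG-2 library A by 22.1% and 22.2% and from ALG-2 library B by 16.2% in both cases. By this measure ALG-2 library B lay slightly closer to the ALG-1 libraries than to its own replicate.

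The shares of 3 of the 6 members did not overlap between the Argonautes. Taken relative to the family sum in the same way, 84.8% of all listed miRNAs did not overlap, in either direction, so this count does not set the members apart. miR-35-3p held 44.3% of the family in both ALG-1 libraries, compared to 28.0% and 35.3% in the ALG-2 libraries. miR-37-3p held 6.70% and 7.49% with ALG-1, compared to 15.2% and 19.6% with ALG-2. miR-39-3p held 18.02% and 18.8% with ALG-1, compared to 13.5% and 14.6% with ALG-2. Thus miR-37-3p was the fourth member in both ALG-1 libraries and the third in both ALG-2 libraries, changing places with miR-39-3p.

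For the other members the shares overlapped. miR-40-3p held 28.3% and 27.5% of the family with ALG-1, compared to 41.9% and 24.6% with ALG-2. miR-36-3p held 1.47% and 1.06% with ALG-1, compared to 1.20% and 4.75% with ALG-2. miR-38-3p held 1.21% and 0.756% with ALG-1, compared to 0.208% and 1.15% with ALG-2. For each of these members, ALG-2 libraries A and B lay on opposite sides of at least 1 ALG-1 library.

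**Figure D4:**
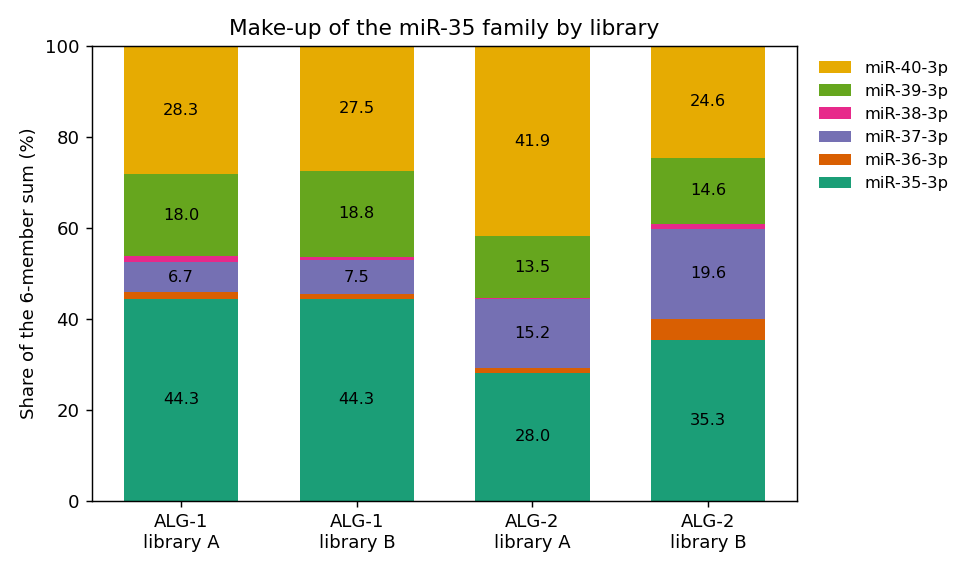
Share of each member in the 6-member sum (%) for each library, ALG-1 libraries left of ALG-2 libraries; shares above 5% are printed in the bars. The bars of the ALG-1 libraries are nearly alike, while miR-37-3p takes 15.2% and 19.6% of the ALG-2 bars compared to 6.70% and 7.49% of the ALG-1 bars.

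The change in make-up was followed through the ratio of each pair of members within a library. Of the 15 pairs, 9 had ratios that did not overlap between the Argonautes. Over all 2145 pairs of listed miRNAs the share without overlap was 55.2%, so a number such as 9 of 15 does not set the family apart. Without ALG-2 library A the count was 14 of 15, beside 84.5% of all pairs, and without ALG-2 library B it was 15 of 15, beside 88.3% of all pairs. The steadiest of these differences, chosen after the values were seen and hence given without a test, was that of miR-35-3p and miR-37-3p. miR-35-3p was 6.61 and 5.92 times as abundant as miR-37-3p with ALG-1, compared to 1.85 and 1.79 times with ALG-2. This is a 3.44-fold change of the ratio, or 1.78 on the log2 scale, with an SD within the groups of 0.083.

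miR-37-3p also changed against miR-39-3p. It was at 0.372 and 0.398 of the level of miR-39-3p with ALG-1, compared to 1.12 and 1.35 of it with ALG-2, a 3.19-fold change of the ratio. The ratio of miR-35-3p to miR-39-3p, in contrast, hardly moved. It was 2.46 and 2.36 with ALG-1, compared to 2.07 and 2.42 with ALG-2, and the groups overlapped. The rare members differed from each other as well, since miR-36-3p was at 1.22 and 1.40 times miR-38-3p with ALG-1, compared to 5.78 and 4.14 times with ALG-2.

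**Figure D5:**
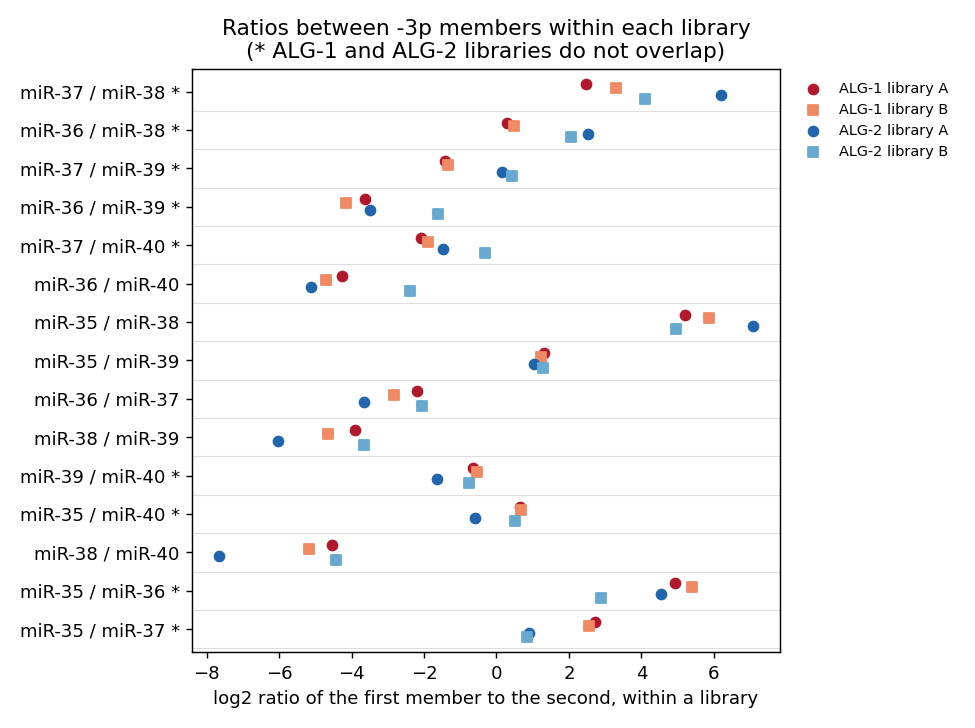
Log2 ratio of the first member to the second within each library for all 15 pairs of -3p members, ordered by the difference between ALG-1 (red shades) and ALG-2 (blue shades); circles are libraries A, squares are libraries B, and stars mark pairs without overlap. The points of each Argonaute lie close together for miR-35 / miR-37 (6.61 and 5.92 times with ALG-1, 1.85 and 1.79 times with ALG-2), whereas those of ALG-2 are far apart for every ratio of miR-38 to an abundant member.

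To ask whether single members depart from the family in their ALG-1/ALG-2 ratio, limma was also fitted to log2 values taken relative to the mean of the 6 members in the same library. 0 of the 6 members passed (limma adjusted p below 0.05), and 0 of 6 had an unadjusted p-value below 0.05. On this scale 68.2% of all 66 miRNAs passed after adjustment and 72.7% before it, all of them outside the family, whose mean is set to 0 on this scale. The largest departure toward ALG-2 was that of miR-37-3p, at -1.19 ± 0.55 (SE, limma adjusted p = 0.0760), and the largest toward ALG-1 that of miR-38-3p, at 1.07 ± 0.72 (SE, limma adjusted p = 0.198). With ALG-2 library A left out, 2 members passed, miR-36-3p (log2 -1.46, limma adjusted p = 0.0135) and miR-37-3p (-1.002, 0.0338). With ALG-2 library B left out, 2 members passed, miR-37-3p (-1.38, 0.00776) and miR-38-3p (1.92, 0.0135). In these refits 75.8% and 81.8% of all miRNAs passed. With ALG-1 library A or ALG-1 library B left out, 0 members passed, beside 30.3% and 18.2% of all miRNAs, and limma gave miR-37-3p an adjusted p of 0.541 and 0.403. Whichever library was left out, miR-37-3p and miR-36-3p had ratios below the family mean and miR-38-3p had one above it. For miR-37-3p and miR-36-3p the groups did not overlap on this scale. Leaving out a library could therefore not change their direction, which tests no stability. Left-out values ran from -0.22 to -1.46 for miR-36-3p and from 0.21 to 1.92 for miR-38-3p. Which of these members passed depended on the library left out.

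The replicates of ALG-2 also divided the members. The abundant members were higher in ALG-2 library A than in B, on the log2 scale by 1.68 for miR-40-3p, 0.81 for miR-39-3p, 0.58 for miR-35-3p and 0.54 for miR-37-3p. miR-36-3p and miR-38-3p were lower in A than in B, with log2 differences of -1.08 and -1.55. Over all miRNAs, 53.0% were higher in A. Between the ALG-1 libraries all 6 members were higher in A, by 0.049 (miR-37-3p) to 0.88 (miR-38-3p), as were 65.2% of all miRNAs.

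The 5 miRNAs outside the family with the most similar course over the 4 libraries were chosen by the root-mean-square difference of their centered log2 values from those of the family sum. The closest was miR-253-3p, with a difference of 0.16. It had 288 and 314 RPM with ALG-1, compared to 1466 and 899 RPM with ALG-2, and no member of the family was as close to the family sum, the nearest being miR-39-3p at 0.20. miR-61-3p followed at 0.45, with 2757 and 1752 RPM with ALG-1, compared to 26024 and 9932 RPM with ALG-2. miR-72-5p (0.57), miR-66-5p (0.65) and miR-86-5p (0.77) came next. Likeness over 4 libraries is a description only.

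The miR-51 family is another miRNA family that embryos are known to depend on, and it did not follow the miR-35 family. Together its 6 listed members held 3.26% and 3.46% of the ALG-1 reads, compared to 9.32% (A) and 2.22% (B) of the ALG-2 reads, so the sums overlapped. By the 1.5-fold criterion 0 of its 6 members passed in either direction, and by limma 0 of 6 had an adjusted p-value below 0.05. miR-52-5p was lower in both ALG-1 libraries (4289 and 3530 RPM, compared to 4429 and 7877 RPM with ALG-2), miR-54-3p was higher in both (8086 and 10195 RPM, compared to 2349 and 6121 RPM with ALG-2), and the other 4 overlapped. miR-51-5p stood out for 53027 RPM in ALG-2 library A, compared to 2807 RPM in ALG-2 library B. The difference between the families was not tested.

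Members of other families likewise differed from each other in their ALG-1/ALG-2 ratio. The log2 ratios of the 6 miR-35 family members spanned 2.26 and those of the 6 miR-51 family members 3.29. Those of 4 let-7 family members taken by name (let-7-5p, miR-48-5p, miR-84-5p and miR-241-5p) spanned 1.08, and those of the 4 miR-58 family members 0.62. Other listed let-7 relatives were not looked for. In mean abundance the most and the least abundant members were 55.7 times apart in the miR-35 family and 20.4 times in the miR-51 family. They were 61.3 times apart among these 4 let-7 family members and 7.87 times in the miR-58 family. In abundance, the spread among miR-35 family members therefore lay within the range seen in these sets. In log2 ratio only the miR-51 family spanned more, and this rested on miR-51-5p, at -2.03 ± 1.31 (SE). That miRNA had 53027 RPM in ALG-2 library A, compared to 2807 RPM in B. The other miR-51 family members lay between -0.60 (miR-52-5p) and 1.26 (miR-54-3p), a narrower span than that of the miR-35 family.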

How the data were processed

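Small RNAs that came down with each tagged Argonaute were sequenced in 2 libraries each. Per the labels and the study's methods, the authors removed adapters with cutadapt, mapped reads to the WS261 genome with miRDeep2 (versions not given in the sources used here), counted mature miRNAs on miRBase annotations and deposited RPM, the reads of a miRNA per 1000000 reads of the library. The deposited table lists 66 miRNAs with 1003 or more RPM summed over the libraries. All 264 values were whole multiples of 1 read for a single library size (tolerance 1e-05 reads), which gave the depths. No count test was run, since the deposited values are RPM rather than counts.

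limma 3.58.1 (R 4.3.3) was fitted to log2 of RPM plus a pseudocount of 1, with a variance trend, no replicate block and Benjamini-Hochberg adjustment over all 66 miRNAs. Log2 ratios are ALG-1 over ALG-2 with moderated SE. miRNAs were named by rule: the 6 members, the 5 nearest profiles, the miR-51 family and miRNAs that check the stage. The members and lists were chosen with earlier results of these data known. Families were taken by name, since no miRNA sequences were used here, and the planned grouping by seed was not made. Coordinates are those of RefSeq for WBcel235. The functions were tested on simulated data. Alternatives covered scaling, pseudocount, filter, pairing, threshold and left-out libraries.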

Additional observations from a re-analysis of the deposited data

How the results depend on the processing

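The number of members enriched with ALG-2 was 5, and it was also 5 with a 2-fold threshold, other scalings and other pseudocounts. It was 5 or 6 with pairings, the ratio of group means, a minimum of 4000 summed RPM that removes miR-38-3p, and each library left out. In this second set it could not fall below 5. These settings use a part or an average of the same ratios, or drop a member that had not passed. The log2 ratio of the family sums was -2.10 as reported and lay between -1.65 and -2.56 in the alternatives. Both ends came from leaving out an ALG-2 library. With 2 libraries per group, leaving out 1 cannot move this ratio by more than the SD within groups, so the range tests no stability. The number of members called by limma changed with the setting. It was 1 as reported, when 1 of all 66 miRNAs was lower with ALG-1. It was 2 with median-of-ratios or TMM scaling (4 of all miRNAs with each) or without the variance trend (3 of all), and 0 with the family left out of the denominator. The column names carry no replicate number, so a replicate block was fitted both with pairs by the running numbers in those names, which gave 0 members and ended the call of miR-37-3p (limma adjusted p = 0.0683), and with crossed pairs, which gave 3 members (5 of all miRNAs lower and 2 higher). Deviations from group means correlated at -0.21 for the first pairing and 0.21 for the second, the labels give no shared batch, and no cause was tested. Leaving out a library gave 0 to 2 members by limma, 9 to 15 member pairs without overlap in place of 9, and 0 to 2 members departing from the family in place of 0. Fewer libraries make overlap less frequent by construction. Relative to the family mean, miR-40-3p was at -0.11, but at 0.10 with the 4000 RPM minimum, at 0.24 with the family median as center and at 0.65 without ALG-2 library A, and left-out libraries gave -0.87 (without ALG-2 library B) to 0.65. miR-37-3p, the sole member called, passed in 8 of 13 alternatives, with limma adjusted p from 0.00199 to 0.736. The other members gained 6 calls, counted per member, and 0 of 77 refits of a member's log2 ratio changed its sign. The replicate blocks, the fit without a variance trend and the 4000 RPM minimum leave that ratio as it is, so they could not change its sign. Leaving out a library could not change it either for the 5 members whose groups did not overlap. The count of unchanged signs is therefore no measure of stability. Over all 66 miRNAs the median ratio was 0.13 on the log2 scale in deposited units, 0.02 after TMM scaling and -0.13 with the family left out of the denominator, and the members' ratios shift with it. No filter at all was not run, as no listed miRNA falls below the minimum used. With 2 libraries per group the limit is the spread between them, not depth.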
